A study of Mus musculus with 19 samples.

Results

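B cell genes were followed in myeloid cells sorted from mouse spleen. They are 30 genes that B lymphocytes are known for: parts of the antigen receptor, surface coreceptors, signalling proteins, transcription factors and receptors for survival and homing. A gene was taken where the symbol column of the count table held its name, which found 29 of the 30 among 38887 genes; Faim3 was not found under that symbol. All 29 passed the filter on low counts, as did 12943 genes in all.

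The samples were 2 kinds of myeloid-derived suppressor cell (MDSC), myeloid cells that can restrain T cell responses. PMN-MDSC are neutrophil-like and carry CD11b, Ly6G and intermediate Ly6C; M-MDSC are monocyte-like and carry CD11b and high Ly6C without Ly6G. Both came from spleens of mice 7 days old (newborn) or 6 to 8 weeks old (adult), and neither a strain nor any treatment of the animals is given in the labels. PMN-MDSC gave 6 adult and 5 newborn libraries and M-MDSC gave 3 adult and 5 newborn libraries, in 2 batches that each held all 4 groups. The protocols describe enrichment on CD11b beads and a cell sort, and also Ly6G beads for PMN-MDSC and a sort on another instrument for M-MDSC, so cell type and isolation route cannot be told apart. No antibody against a B cell antigen is named in these steps.

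A B cell reads its antigen through a membrane immunoglobulin that signals by way of the CD79A and CD79B chains, and CD20 (Ms4a1) sits beside it. The kinase BLK and the adaptor BLNK carry the signal inward, CD21 (Cr2) lowers its threshold, and CD22, CD72 and Siglec-G damp it. EBF1 and PAX5 set and keep B cell identity, while the BAFF receptor (Tnfrsf13c), TACI (Tnfrsf13b) and CXCR5 govern survival and entry into follicles. The spleen is rich in B cells, and its follicular and marginal zone B cells mature during the first weeks of life. A few of these genes, Spib, Cd180 and Pou2f2 among them, are also known from other immune cells.

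The promoters of 24 of the 29 genes were in the RefSeq table of build GRCm38.p6, and were searched for motifs of 3 factor families that B cells use. The motifs, read on both strands of 300 bases from 250 before to 50 after each start, were TCCC, any 2 bases and then GGGA for EBF, ATTTGCAT for the octamer bound by OCT-1 and OCT-2, and GAGGAAGT for PU.1 and SPI-B. The first 3 windows below show an example of each motif, with the motif in capitals, and that of Tnfrsf13b is shown because its levels went apart from the others, in lower case since it held none of the motifs. Each is the 250 bases before the start on the gene's own strand, at chr7:30879029-30879278 (minus) for Cd22, chr19:40994222-40994471 (minus) for Blnk, chr16:45224087-45224336 (plus) for Btla and chr11:61126505-61126754 (plus) for Tnfrsf13b.
Cd22: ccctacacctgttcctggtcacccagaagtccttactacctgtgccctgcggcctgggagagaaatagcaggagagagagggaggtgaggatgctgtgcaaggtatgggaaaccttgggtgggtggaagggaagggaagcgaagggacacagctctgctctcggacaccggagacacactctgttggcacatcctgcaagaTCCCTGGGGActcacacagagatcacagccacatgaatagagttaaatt
Blnk: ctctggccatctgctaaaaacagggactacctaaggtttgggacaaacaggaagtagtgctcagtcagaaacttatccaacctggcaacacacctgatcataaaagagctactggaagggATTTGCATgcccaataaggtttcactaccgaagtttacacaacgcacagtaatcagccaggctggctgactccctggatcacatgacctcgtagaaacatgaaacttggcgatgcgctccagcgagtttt
Btla: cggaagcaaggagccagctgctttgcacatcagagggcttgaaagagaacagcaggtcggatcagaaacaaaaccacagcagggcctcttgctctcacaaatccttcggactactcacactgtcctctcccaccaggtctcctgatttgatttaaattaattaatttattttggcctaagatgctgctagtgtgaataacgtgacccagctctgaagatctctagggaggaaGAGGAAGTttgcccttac
Tnfrsf13b: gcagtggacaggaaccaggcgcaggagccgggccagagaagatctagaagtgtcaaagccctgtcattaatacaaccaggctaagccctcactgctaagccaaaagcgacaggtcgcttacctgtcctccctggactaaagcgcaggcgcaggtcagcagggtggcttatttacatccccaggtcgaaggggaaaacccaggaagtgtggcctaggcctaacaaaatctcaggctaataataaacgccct

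The EBF motif was found in 1 of the 24 genes, Cd22 (4.17%, against 1.06% of 27025 genes), starting 49 bases before the start. The octamer was found in 2, Blnk and Vpreb3 (8.33%, against 1.97%), and the PU.1 and SPI-B motif in 3, Btla, Cd72 and Fcrl1 (12.5%, against 3.69%). No match overlapped another, and these few matches describe letters in a window, not binding.

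By lineage markers the 2 sorted cell types lay apart in the direction of their labels. In PMN-MDSC the summed level of 8 neutrophil genes was 7939 to 9330 CPM for adults and 41822 to 47161 CPM for newborns. In M-MDSC it was 408 to 597 CPM for adults and 1178 to 5748 CPM for newborns, so M-MDSC of the 2 ages differed in neutrophil RNA. The source of that RNA was not tested. The summed level of 8 monocyte genes was 7298 to 12244 CPM in M-MDSC against 714 to 1177 CPM in PMN-MDSC. CPM is the usual depth-scaled count, here on the library size after TMM scaling, and levels of different genes are not compared, since it is not per length. Total counts were 827744 to 2965896 in the 10 libraries of batch 1 and 14026193 to 45135933 in the 9 of batch 2, so 3 counts, the most that a count of 0 allows, came to 0.990 to 3.29 CPM and 0.0601 to 0.197 CPM. These limits and the intervals given below cover counting error only.

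Some libraries may share their source, as was noticed once the data were seen. Each batch 1 library of PMN-MDSC resembled 1 library of batch 2 (adult replicates 1 and 32, 2 and 33, 3 and 34, newborn replicates 2 and 37, 3 and 38): their deviations from the means of their group and batch correlated at 0.342 to 0.578 over all genes tested, against -0.412 to 0.145 for the 10 other pairs. Their counts still differed beyond sampling noise, with a chi-square per gene of 2.23 to 7.20 where noise alone gives 1, against 7.85 to 23.3 for the other pairs. Part of the contrast in correlation is set by the centring. The 2 newborn libraries of batch 1 have mirrored deviations, so each positive value there brings an equal negative one. The chi-square does not use these means, but the pairs were picked from the same data. All were entered as separate libraries, and the main counts are also given without the 5 batch 1 partners. Those 5 are all the PMN-MDSC libraries of batch 1, so such a fit holds the same PMN-MDSC libraries as batch 2 alone. It is no separate check between ages in PMN-MDSC. Nothing in the labels says that replicates are separate animals, so p-values measure only how these libraries vary, which could be technical variation.

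All 29 genes were detected in both cell types, and their summed level followed age. It was 4873 to 7590 CPM in adult PMN-MDSC (median 5493), 630 to 956 in newborn PMN-MDSC (median 693), 1337, 2888 and 2227 in adult M-MDSC replicates 1, 3 and 28, and 438 to 573 in newborn M-MDSC (median 462). The 4 ranges did not overlap, and adult M-MDSC spread the most in proportion to its level. The map of every gene in every library shows that a library high in 1 of these genes was mostly high in the rest, with Tnfrsf13b as the clearest departure.

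**Figure D1:**
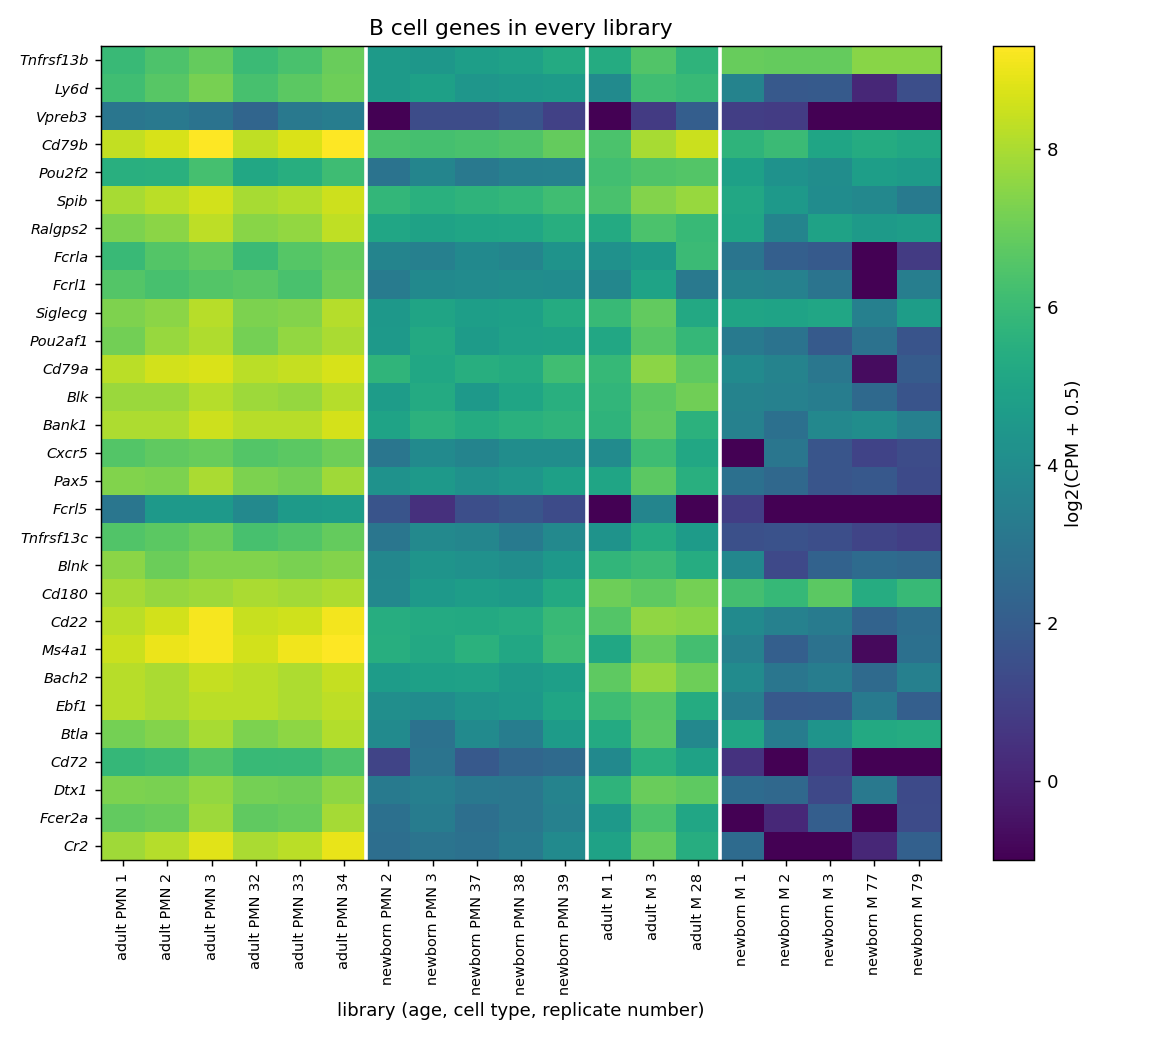
Level of the 29 genes (rows) in the 19 libraries (columns, by group and replicate number), as log2(CPM + 0.5). Adult PMN-MDSC are the brightest in most rows and newborn M-MDSC the darkest. Tnfrsf13b is brighter in the 5 newborn M-MDSC libraries than in adult M-MDSC, and Cd180, Pou2f2 and Btla are not darkest there.

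In a bulk library, fewer cells of a type and less RNA per cell cannot be told apart. Other genes of B cells and their neighbours were therefore read beside these 29. Counts of 252 immunoglobulin genes made up 0.322% to 0.582% of the library in adult PMN-MDSC, 0.0397% to 0.0637% in newborn PMN-MDSC, 0.0853%, 0.376% and 0.281% in the 3 adult M-MDSC libraries and 0.0123% to 0.0237% in newborn M-MDSC. These shares do not overlap between ages within a cell type, and adult M-MDSC replicate 1, the lowest of its group in immunoglobulin, was also the lowest in the summed B cell genes. Across the 19 libraries, the log2 level of 26 of the 29 genes correlated with the immunoglobulin share at 0.739 to 0.981, that of Pou2f2 at 0.680, of Cd180 at 0.735 and of Tnfrsf13b at -0.0111; the libraries fall into groups, so this is a description.

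The antigen receptor chains and CD20 were lower in newborns in both cell types. Cd79a (chromosome 7, 24897381 to 24902197, plus strand, in build GRCm38) ranged from 300 to 420 CPM in adult PMN-MDSC (median 359). It was 52.5, 35.0, 43.1, 39.5 and 70.5 CPM in newborn PMN-MDSC replicates 2, 3, 37, 38 and 39. In adult M-MDSC it was 58.7, 183 and 106 CPM in replicates 1, 3 and 28, and in newborn M-MDSC 14.9, 11.5, 7.88, 0.141 and 3.42 CPM in replicates 1, 2, 3, 77 and 79. Ages did not overlap in either cell type for this gene, and newborn M-MDSC replicate 77 held almost none of this transcript.

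Every fold change below is a log2 value of newborn against adult with its standard error (SE) from edgeR's quasi-likelihood test over 12943 genes, and a gene is called changed where the Benjamini-Hochberg adjusted p is under 0.05. Cd79a fell by 2.81 ± 0.53 in PMN-MDSC (adjusted p = 0.000217), and in M-MDSC it fell by 4.34 ± 0.66 (adjusted p = 7.4e-05). Ms4a1 (chromosome 19, 11249675 to 11266241, minus strand) was 356 to 628 CPM in PMN-MDSC of adults and 36.0 to 66.0 CPM in those of newborns, and fell by 3.42 ± 0.54 (adjusted p = 3.3e-05). In M-MDSC it went from 34.6, 119 and 74.9 CPM to 11.1, 3.85, 6.95, 0.0938 and 6.52 CPM, a fall of 3.91 ± 0.65 (adjusted p = 0.000176). Cd79b (chromosome 11, 106311341 to 106314762, minus strand) was 321 to 632 CPM in PMN-MDSC of adults and 77.4 to 118 CPM in those of newborns, and fell by 2.37 ± 0.30 (adjusted p = 3.38e-06). In M-MDSC it was 83.4, 244 and 352 CPM in adults and 52.0, 64.8, 32.4, 40.3 and 35.7 CPM in newborns, a fall of 2.33 ± 0.34 (adjusted p = 5.25e-05).

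**Figure D2:**
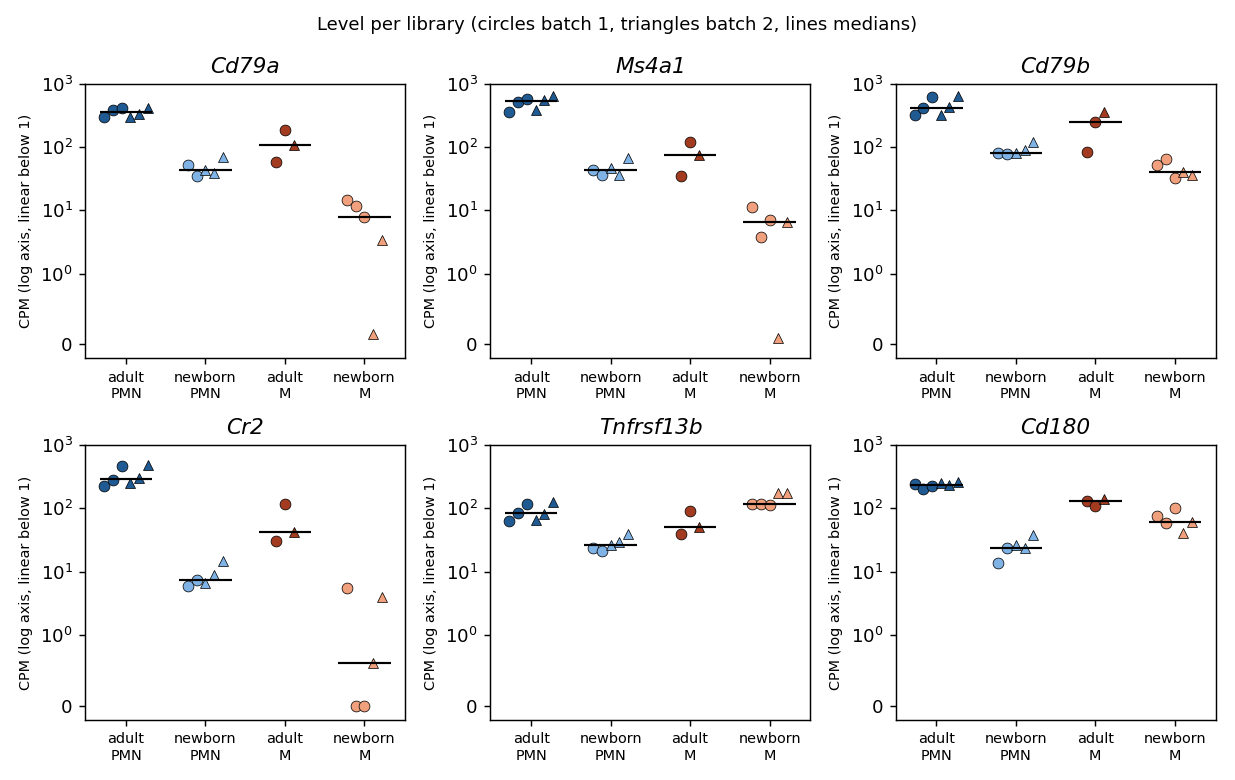
Level in CPM (log axis, linear below 1) of 6 genes in each library, by group; circles are batch 1, triangles batch 2 and lines medians. Cd79a, Ms4a1, Cd79b, Cr2 and Cd180 lie lower in newborns than in adults of the same cell type, and Tnfrsf13b lies higher in newborn than in adult M-MDSC, with its lowest newborn value at 115 CPM.

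The 2 chains of the receptor complex parted in newborn M-MDSC. The count of Cd79b per count of Cd79a was 1.05 to 1.55 in adult PMN-MDSC, 1.52 to 2.23 in newborn PMN-MDSC and 1.42, 1.34 and 3.32 in the adult M-MDSC replicates. In newborn M-MDSC it was 3.50, 5.61, 4.12, 286 and 10.4 in replicates 1, 2, 3, 77 and 79. All 5 of these ratios lie above those of the other 14 libraries. Replicate 77 had 859 counts of Cd79b, 3 of Cd79a and 2 of Ms4a1, so its ratio has an exact 95% binomial interval of 97.6 to 1391. The intervals of newborn replicates 1 and 3 start at 2.34 and 2.40, and both take in the 3.32 of adult M-MDSC replicate 28. That of newborn replicate 2 starts at 3.38, within the interval of adult replicate 28 (3.15 to 3.50). The source of the Cd79b counts in newborn M-MDSC was not tested.

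In PMN-MDSC, 28 of the 29 genes fell with the newborn state and none rose, where 20.5% of all genes tested were called lower and 27.1% higher. The exception was Vpreb3, a partner of immature receptor chains, at 4.66 to 9.78 CPM in adults and 0 to 2.72 CPM in newborns (log2 difference -2.10 ± 0.99, adjusted p = 0.0915). All 29 had every newborn library below every adult library, which held for 23% of all genes tested, and 28.4% lay above. The median difference was -2.99, against -0.05 for all genes, and the 29 ranged from -5.22 to -1.70. Within batch 1 alone 27 fell, within batch 2 alone 28, and without the batch 1 partners 25.

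Among the coreceptors, Cr2, the CD21 complement receptor of mature B cells (chromosome 1, 195136811 to 195176716, minus strand), fell furthest. It was 226 to 492 CPM (median 293) in adult PMN-MDSC and 6.02, 7.35, 6.60, 9.07 and 14.7 CPM in the newborn libraries, a fall of 5.22 ± 0.56 (adjusted p = 3.23e-07). Fcer2a, the CD23 receptor of follicular B cells that binds immunoglobulin E, fell by 4.18 ± 0.57, from 110 to 240 CPM in adults to 6.30 to 11.2 CPM in newborns (adjusted p = 7.03e-06). The genes of the inhibitory receptors Cd72, Btla, Cd22 and Siglecg fell, with log2 values of -3.92 ± 0.52, -3.79 ± 0.48, -3.24 ± 0.29 and -2.72 ± 0.31. Cd180, a Toll-like receptor relative that modulates B cell responses to lipopolysaccharide, fell by 3.23 ± 0.24. Ly6d, an early marker of B cell commitment, fell by 2.08 ± 0.45. The Fc receptor-like genes Fcrl1, Fcrl5 and Fcrla fell as well, with values of -2.71 ± 0.62, -3.03 ± 1.01 and -2.70 ± 0.58; Fcrl5 had the highest adjusted p of the 28, 0.0188.

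The signalling genes moved within a narrow span. Blnk, the adaptor that links SYK to phospholipase C, fell by 3.13 ± 0.27. The scaffold gene Bank1 (-2.85 ± 0.24), the SRC-family kinase gene Blk (-2.82 ± 0.31) and Ralgps2, which encodes an exchange factor for RAL GTPases (-2.69 ± 0.26), fell too. Blnk was 128 to 181 CPM in the adult libraries and 13.1 to 22.0 CPM in the newborn ones, so the groups lay far apart. All 4 adjusted p were at or under 5.38e-07.

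Of the transcription factors, Ebf1, which starts the B cell programme, fell by 3.73 ± 0.30. Pax5, which keeps it, fell by 3.01 ± 0.30. Dtx1, the Deltex ubiquitin ligase linked to NOTCH2 signalling in marginal zone B cells, fell by 4.11 ± 0.34, from 134 to 201 CPM to 8.10 to 11.7 CPM. Bach2, a repressor that holds back plasma cell differentiation, fell by 3.45 ± 0.22. The octamer coactivator gene Pou2af1 fell by 2.79 ± 0.30. Spib and Pou2f2 (OCT-2), the factor genes with the smallest falls, changed by -2.42 ± 0.30 and -2.38 ± 0.23. Among the survival and homing receptors, Tnfrsf13c and Cxcr5 had values of -3.10 ± 0.23 and -2.99 ± 0.41, while Tnfrsf13b had the smallest fall of the 28, with -1.70 ± 0.24 (adjusted p = 1e-05).

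In M-MDSC, 25 of the 29 genes fell in newborns and 1 rose, where 14.3% of all genes tested were called lower and 15.9% higher. The median was -3.82, against 0.01 for all genes. Newborn libraries lay below all adult ones for 24 genes (10.4% of all genes tested) and above for 1 (12.8%), and 4 overlapped. Within batch 1 alone 25 fell and none rose, within batch 2 alone 24 fell and 1 rose, and without the batch 1 PMN-MDSC partners, which share the model, 24 fell and 1 rose.

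**Figure D3:**
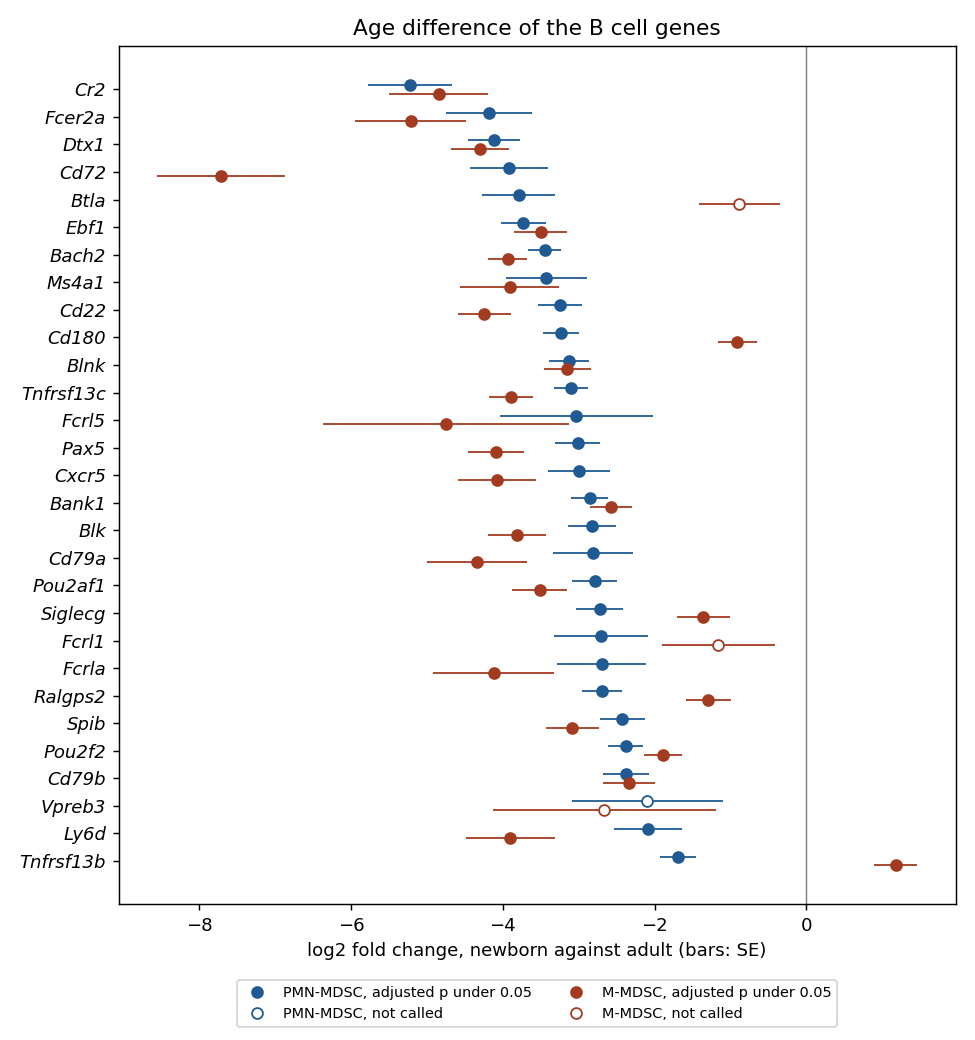
Log2 fold change of newborn against adult (x axis, bars are SE) for the 29 genes in PMN-MDSC (blue) and M-MDSC (red); filled points have an adjusted p under 0.05 and open points do not. All blue points lie left of 0, between -5.22 and -1.70, and the red point of Tnfrsf13b lies right of it at 1.18.

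The gene that rose was Tnfrsf13b, which encodes TACI, a receptor for the survival factors BAFF and APRIL (chromosome 11, 61126755 to 61149372, plus strand). It was 39.5, 90.5 and 51.0 CPM in adult M-MDSC replicates 1, 3 and 28. In newborn M-MDSC it was 118, 116, 115, 176 and 177 CPM in replicates 1, 2, 3, 77 and 79, so every newborn library was above every adult one. The difference was 1.18 ± 0.29 (adjusted p = 0.00445). Its call was lost in 3 of 33 alternatives: batch 1 alone (0.83, adjusted p = 0.0906), only the groups compared, and voom. The 2 batch 2 newborn libraries were the highest, and 1 of them, replicate 77, combined 176 CPM of Tnfrsf13b with the lowest levels of Cd79a and Ms4a1 of all 19 libraries.

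Cd180, Siglecg and Ralgps2 also fell in M-MDSC. Cd180 (chromosome 13, 102693558 to 102739629, plus strand) was 131, 108 and 142 CPM in adult M-MDSC and 75.2, 59.0, 103, 41.2 and 61.4 CPM in newborn M-MDSC, a fall of 0.91 ± 0.26 (adjusted p = 0.0115). The groups did not overlap, but the call was lost in 5 of 33 alternatives. Among them were batch 1 alone (-0.60, adjusted p = 0.132) and the omission of newborn replicates 77 and 79 (-0.57, adjusted p = 0.0843). Siglecg fell by 1.36 ± 0.35 (adjusted p = 0.00638), a call that was lost without adult replicate 3 and in batch 2 alone (-0.90, adjusted p = 0.262). Ralgps2 fell by 1.29 ± 0.29 (adjusted p = 0.00271), a call lost in 3 of 33 alternatives. Btla was 38.4, 103 and 13.6 CPM in adults and 33.9, 9.62, 19.5, 37.6 and 39.7 CPM in newborns; the groups overlapped and the difference of -0.88 ± 0.53 was not called (adjusted p = 0.228). Fcrl1 (adjusted p = 0.26) and Vpreb3 (adjusted p = 0.187) were not called either.

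Several of the remaining genes had few or no counts in newborn M-MDSC, where 2 to 6 of the 29 were at 0 in each library, against at most 2 in any adult M-MDSC library. Cd72, at 14.3, 46.1 and 30.5 CPM in adult M-MDSC, had counts in only 2 of the 5 newborn libraries, 0.929 CPM in replicate 1 and 1.39 CPM in replicate 3, and fell by 7.72 ± 0.84 in the fit (adjusted p = 1.83e-06). Cr2 and Fcer2a, each at 0 in 2 of the 5 newborn libraries, had fitted values of -4.84 ± 0.65 and -5.22 ± 0.73. Fitted folds of genes with libraries at 0 depend on the prior count. Fcrl5 was at 0 in adult replicates 1 and 28 and in 4 newborn libraries. Its call (-4.74 ± 1.62, adjusted p = 0.0336) depended on adult replicate 3, at 12.5 CPM: without it the value was 3.37 with an adjusted p of 0.371. The call was also lost in 9 of 32 alternatives, among them the omission of newborn replicate 2, 3, 77 or 79 by itself. The transcription factor genes Pax5, Ebf1 and Bach2 fell, with values of -4.09 ± 0.37, -3.50 ± 0.35 and -3.94 ± 0.25, as did Pou2af1, Spib and Dtx1, with -3.51 ± 0.36, -3.08 ± 0.35 and -4.30 ± 0.39. Pou2f2 had the smallest fall among them (-1.89 ± 0.25), from 72.9, 88.8 and 93.9 CPM to 28.3, 18.6, 16.2, 27.0 and 24.8 CPM.

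The age difference itself differed between the cell types for 6 of the 29 genes, where 18.1% of all genes tested were called either way, a share close to that background. It was higher in M-MDSC for 5, where 6.61% of all genes tested were, and lower for 1, where 11.5% were. The difference in M-MDSC minus that in PMN-MDSC was 2.90 ± 0.70 for Btla (adjusted p = 0.007), 2.87 ± 0.37 for Tnfrsf13b (adjusted p = 3.94e-05) and 2.33 ± 0.35 for Cd180 (adjusted p = 0.000156). It was 1.40 ± 0.39 for Ralgps2 (adjusted p = 0.017), 1.36 ± 0.46 for Siglecg (adjusted p = 0.0487) and -3.80 ± 1.02 for Cd72 (adjusted p = 0.0139). Tnfrsf13b and Cd180 were called in each batch alone, at 2.80 and 3.29 and at 3.00 and 1.63 for batches 1 and 2. Of 32 alternatives, the call of Siglecg was lost in 23, among them each batch alone and the omission of most single libraries. That of Ralgps2 was lost in 6, including each batch alone, that of Cd72 in 6 and that of Btla in 3, both including batch 1 alone. The calls of Btla, Ralgps2, Siglecg and Cd72 were all lost without the batch 1 partners (adjusted p = 0.114, 0.151, 0.157 and 0.107), and that of Cd72 also without newborn M-MDSC replicate 79 (-2.86, adjusted p = 0.0632).

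Between the cell types, most of the genes were lower in M-MDSC. In adults 21 were lower and 1 higher, where 12.5% of all genes tested were called lower and 16.7% higher, and 24 genes had all M-MDSC libraries below all PMN-MDSC libraries (15.7% of all genes tested) and none above (14%). The median of the 29 was -1.67. Ms4a1 was lower by a log2 value of -2.73 ± 0.64 (adjusted p = 0.00369) and Cd79a by -1.71 ± 0.61 (adjusted p = 0.0425), the latter lost in 14 of 33 alternatives. Pou2f2 was higher, at 72.9 to 93.9 against 35.3 to 75.6 CPM (0.72 ± 0.24, adjusted p = 0.0333), with overlapping groups and a call lost in 13 of 33 alternatives. The count of lower genes was 14 in batch 1 alone, 15 in batch 2 alone and 14 without the batch 1 partners, and no gene was higher in any of these.

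In newborns 21 genes were lower in M-MDSC and 3 higher, where 23.4% of all genes tested were called lower and 18.7% higher; 18 and 3 genes did not overlap (22.5% and 16%). The median was -2.03. The 3 higher genes were Tnfrsf13b, by 2.35 ± 0.25 (adjusted p = 5.36e-07), Cd180, by 1.44 ± 0.24 (adjusted p = 9.8e-05), and Pou2f2, by 1.21 ± 0.24 (adjusted p = 0.000422). Newborn PMN-MDSC held 24.1, 21.6, 27.0, 29.6 and 38.9 CPM of Tnfrsf13b and 13.7, 23.4, 26.3, 23.7 and 37.5 CPM of Cd180, all below the newborn M-MDSC values given above. Pou2f2 was 7.11 to 12.5 CPM in newborn PMN-MDSC and 16.2 to 28.3 CPM in newborn M-MDSC. In batch 1 alone 11 genes were lower and 2 higher, in batch 2 alone 21 and 2, and without the batch 1 partners 18 and 3; Cd180 missed the threshold in batch 2 alone (0.71, adjusted p = 0.066) and Pou2f2 in batch 1 alone (1.09, adjusted p = 0.0619).

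To read each gene against 3 B cell genes rather than against the whole library, the same test was run with the summed counts of Cd79a, Cd79b and Ms4a1 as the library size. On this scale 0 means that a gene changed as their sum did, and the other 26 genes were counted. Cd79b was 31.2% to 38.3% of that sum in adult PMN-MDSC, 44.7% to 66.0% in adult M-MDSC and 66.7% to 99.4% in newborn M-MDSC. In newborn M-MDSC the sum therefore follows Cd79b above all, and the source of its counts there was not tested. In newborn against adult PMN-MDSC, 21 of the 26 were not called, with a median of -0.15, while 0.549% of all genes tested were called lower and 83.3% higher. Bank1 stood at 0.00 ± 0.35 and Blk at 0.01 ± 0.30: Blk counts were 15.5% to 22.2% of the summed 3 in adults and 13.7% to 26.4% in newborns. A p over the threshold does not show that these genes kept pace, and a simulated log2 change of 1 was recovered for 18% of genes on this scale and one of 2 for 98%.

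**Figure D4:**
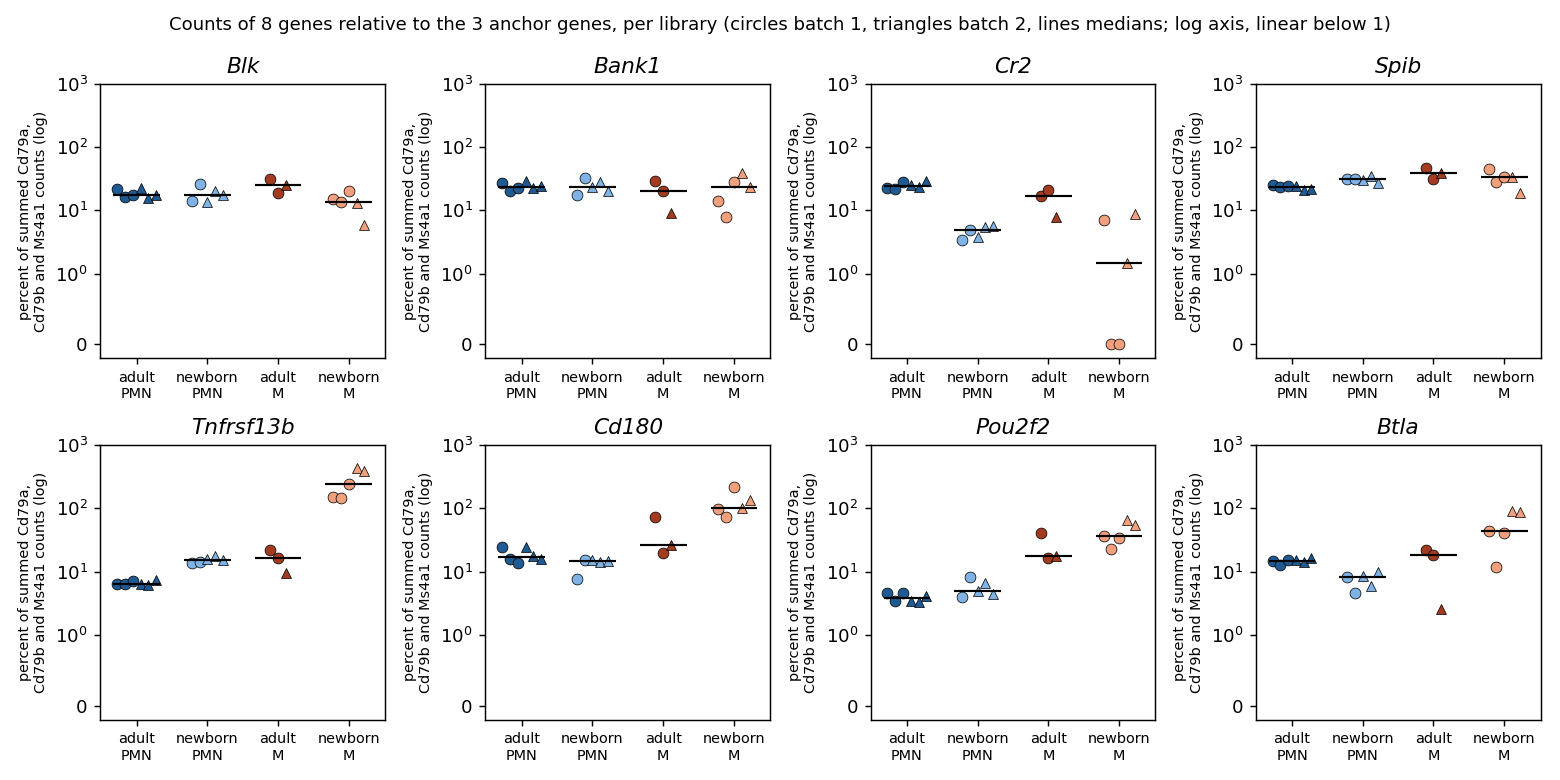
Counts of 8 genes as a percent of the summed counts of Cd79a, Cd79b and Ms4a1 in each library (log axis, linear below 1); circles are batch 1, triangles batch 2 and lines medians. Blk and Spib lie between 6.00% and 46.0% in all 19 libraries, Cr2 lies lower in newborn than in adult PMN-MDSC, and Tnfrsf13b lies between 145% and 435% in newborn M-MDSC.

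In PMN-MDSC, 5 of the 26 were called against the 3 reference genes. Cr2 was lower relative to them by a log2 value of -2.44 ± 0.57 (adjusted p = 0.000475), going from 21.9% to 29.5% of their counts in adults to 3.42% to 5.79% in newborns, with no overlap. Dtx1 (-1.28 ± 0.40, adjusted p = 0.00573), Btla (-1.02 ± 0.47, adjusted p = 0.0478) and Ebf1 (-0.99 ± 0.41, adjusted p = 0.0312) were also lower relative to them, and Tnfrsf13b was higher by 1.16 ± 0.30 (adjusted p = 0.00128), at 6.27% to 7.47% in adults and 13.7% to 18.1% in newborns. Cr2 kept its call in each batch alone (-2.55 and -2.36) and without the batch 1 partners (-2.36, adjusted p = 0.0358), and lost it in 1 of 30 alternatives, with Ms4a1 alone as the reference (-1.95, adjusted p = 0.0673). The call of Tnfrsf13b was lost in 6 of 30, among them batch 1 alone (1.06, adjusted p = 0.1) and each of the 3 genes alone as the reference (0.66 to 1.63). Those of Btla, Ebf1 and Dtx1 were lost in 22, 13 and 6 of 30, including Cd79a alone and Ms4a1 alone, and that of Btla with any 1 PMN-MDSC library left out. Without those partners Dtx1 (adjusted p = 0.0751), Btla (adjusted p = 0.251) and Ebf1 were not called and Cr2 and Tnfrsf13b (1.28, adjusted p = 0.0266) were.

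In M-MDSC, 5 genes rose in newborns relative to the same 3 genes and 8 fell, where 74.6% and 1.31% of all genes tested were called higher and lower. Tnfrsf13b rose by 3.99 ± 0.44 (adjusted p = 2.41e-07), from 9.57% to 22.4% of the summed counts in adults to 145% to 435% in newborns. Btla rose by 1.83 ± 0.62, Cd180 by 1.65 ± 0.46, Ralgps2 by 1.56 ± 0.40 and Siglecg by 1.30 ± 0.43, with groups that overlapped. In batch 1 alone, Tnfrsf13b kept its call (3.21, adjusted p = 0.000303) and Btla, Cd180, Ralgps2 and Siglecg did not (adjusted p = 0.371, 0.0599, 0.136 and 0.221). The 8 that fell were Pax5, Cr2, Fcer2a, Blk, Cd22, Cd72, Bach2 and Dtx1. Cd72 was lower in all 30 alternatives. With Cd79a alone or Ms4a1 alone as the reference, 6 of the 8, all but Fcer2a and Cd72, turned to values above 0. With Cd79a and Ms4a1 as the reference and newborn replicate 77 left out, an alternative added after the data were seen, all 6 were below 0 again. Dtx1 (-1.28, adjusted p = 0.01) and Cd72 (-2.82, adjusted p = 0.00861) were then called, and Bach2, Blk, Cd22, Cr2, Fcer2a and Pax5 were not (adjusted p of 0.199 to 0.713).

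Comparing M-MDSC with PMN-MDSC on this scale, Pou2f2 was higher by 2.66 ± 0.39 in adults (adjusted p = 5.85e-06) and by 2.94 ± 0.38 in newborns (adjusted p = 2.01e-06), without overlap in either. In PMN-MDSC it was 3.33% to 4.68% of the summed 3 for adults and 4.04% to 8.41% for newborns, against 16.2% to 41.3% and 23.2% to 66.6% in M-MDSC. In adults Tnfrsf13b (1.32 ± 0.34), Cd180 (1.07 ± 0.41) and Spib (0.70 ± 0.28) were also higher and none was lower, where 65.4% of all genes tested were called higher and 1.77% lower. The calls of these 3 were lost in 6, 12 and 15 of 30 alternatives. All 3 were lost with Cd79a, Cd79b or Ms4a1 alone as the reference, and in batch 2 alone, which has 1 adult M-MDSC library. In newborns 6 genes were higher, where 62.8% of all genes tested were, and 4 lower, where 3.4% were. Besides Pou2f2, the higher ones were Tnfrsf13b (4.15 ± 0.35), Cd180 (3.18 ± 0.41), Btla (2.90 ± 0.51), Siglecg (1.41 ± 0.36) and Ralgps2 (1.32 ± 0.33). The 4 lower ones were Pax5, Cd22, Cd72 and Ly6d, of which Pax5, Cd22 and Ly6d turned to values above 0 with Cd79a or Ms4a1 as the reference. With both as the reference and newborn M-MDSC replicate 77 left out, none of the 4 was called: Pax5 was at -0.09, Cd72 at -1.27, Cd22 at 0.40 and Ly6d at 0.02.

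The reference was thin in newborn M-MDSC, with 102 to 1134 counts of the 3 genes in a library. Replicate 77 had 864 counts of the 3 reference genes, 859 of them Cd79b. With Cd79a and Ms4a1 as the reference and that library left out, Tnfrsf13b was higher in newborn M-MDSC than in newborn PMN-MDSC by 5.01 (adjusted p = 7.35e-10), Cd180 by 4.27, Pou2f2 by 3.74, Btla by 3.69, Siglecg by 2.60 and Ralgps2 by 2.20. These 6 kept their direction. Their values were larger than with all 3 reference genes, but leaving out Cd79b by itself tends to raise the value of every gene. Between these groups Cd79b had a log2 value of -0.96 ± 0.31, against -3.24 ± 0.64 for Cd79a and -3.22 ± 0.62 for Ms4a1. The larger values are therefore no further support for these 6.

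The genes varied together within the PMN-MDSC libraries and less so in M-MDSC. Over the 11 PMN-MDSC libraries, the log2 level of each of the 26 other genes correlated with the mean of the 3 reference genes at 0.960 to 0.998, apart from Vpreb3 at 0.821; these libraries fall into 2 age groups. Over the 8 M-MDSC libraries it was -0.765 for Tnfrsf13b, 0.179 for Btla and 0.522 to 0.980 for the others, and these libraries differ in depth and age. The 5 genes outside the list that followed the 3 reference genes most closely over all 19 libraries were Iglc2 (an immunoglobulin light chain constant gene, Pearson r = 0.994), Ikzf3 (0.987), Aff3 (0.987), Chst3 (0.987) and H2-Ob (0.986).

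Other genes of B cells moved by class. For the counts of these and the following lists, 20.5% of all genes tested were called lower and 27.1% higher in newborn PMN-MDSC. In newborn M-MDSC these shares were 14.3% and 15.9%. Of 7 immunoglobulin constant genes tested, all 7 were lower in newborns in both cell types; Ighm, the heavy chain of the first antigen receptor, had values of -2.49 ± 0.23 in PMN-MDSC and -2.70 ± 0.26 in M-MDSC. All 9 genes of MHC class II presentation fell in both, with medians of -3.51 and -4.07; the values of their master regulator Ciita were -3.66 ± 0.30 and -4.54 ± 0.34. MHC class II is also made by dendritic cells and monocytes. Of 7 plasma cell genes, 5 fell and none rose in each cell type, with Jchain, which joins secreted immunoglobulin chains, at -4.13 ± 0.43 and -4.76 ± 0.49.

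B cell receptor signalling genes, many of them also used by myeloid cells, were split in direction. Of 24 tested, 8 were lower and 9 higher in newborn PMN-MDSC (20.5% and 27.1% of all genes tested). In newborn M-MDSC 10 were lower and 3 higher (14.3% and 15.9%). Vav2 fell by 1.95 ± 0.17 and Dok3, an adaptor also used by myeloid cells, rose by 1.26 ± 0.17 in PMN-MDSC. Of 14 transcription factors of the B lineage, 8 were lower and 4 higher in newborn PMN-MDSC and 7 lower and none higher in newborn M-MDSC. Foxo1, which B cell precursors depend on, had values of -3.45 ± 0.21 and -2.74 ± 0.23. Irf8, which monocytes also use, fell by 2.36 ± 0.16 in PMN-MDSC and differed by 0.28 ± 0.18 in M-MDSC (adjusted p = 0.271).

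Of 11 genes listed for immature B cells, 6 passed the filter, with 1 lower and 1 higher in newborn PMN-MDSC (median -1.01) and 2 lower and none higher in newborn M-MDSC (median -1.35). The summed level of all 11 went opposite ways in the cell types. In PMN-MDSC it was 484 to 680 CPM in adults and 745 to 937 CPM in newborns. In M-MDSC it was 371 to 426 CPM in adults and 129 to 201 CPM in newborns. In newborn PMN-MDSC this sum was higher while the median of the 6 tested genes was -1.01, so the list had no common direction there. Igll1 and Vpreb1, chosen from this list after their values were seen, had more counts in newborn PMN-MDSC. Both were at low levels and do not stand for the other genes of the list. Igll1, a surrogate light chain gene, had 1 count in 1 of 6 adult PMN-MDSC libraries and 147 counts over all 5 newborn ones (mean 2.06 CPM), and Vpreb1, its partner, had 0 and 66. In M-MDSC they had 0 and 0 counts in adults and 9 and 3 in newborns, and neither was tested. The 2 called in PMN-MDSC, Cd93 and Cd24a, are also expressed by myeloid cells.

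Markers of other lineages were read beside the B cell genes. The summed level of 15 T cell genes was 95.4 to 186 CPM (adult) and 54.5 to 84.4 CPM (newborn) in PMN-MDSC, and 169 to 475 and 13.9 to 52.0 CPM in M-MDSC. In newborn PMN-MDSC 3 of the 15 fell, a share close to the 20.5% of all genes tested. In newborn M-MDSC 14 fell, against 14.3% of all genes tested. Lck, which encodes a T cell kinase, had values of -1.72 ± 0.48 and -3.28 ± 0.56. Of 6 natural killer cell genes, 2 and 4 fell. Of 8 erythroid genes, all 8 rose in newborn PMN-MDSC and none was called in M-MDSC, where their summed level ran from 0.985 to 2837 CPM in newborns. Of 5 plasmacytoid dendritic cell genes, none was called in PMN-MDSC and 2 fell in newborn M-MDSC, and of 8 conventional dendritic cell genes 3 and 2 fell. The part of each of these cell types in the levels of the B cell genes was not tested.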

How the data were processed

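RNA was sequenced as single-end reads of 50 bases in 19 libraries. The authors deposited estimated counts per gene in a table of 38887 genes; the submitters' processing notes name RSEM 1.2.3, build mm10 and DESeq2, with no role given. Counts were rounded to whole numbers, and 852 genes without a symbol stayed in the fit. Whether counting used strand is not given in the sources used here.

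Genes passing edgeR 4.0.16's expression filter were fitted with its quasi-likelihood test in R 4.3.3, with TMM scaling, all 4 groups and batch as a term (14 residual degrees of freedom), and p-values were Benjamini-Hochberg adjusted over 12943 genes. The 5 comparisons were newborn against adult in each cell type, the difference of these, and M-MDSC against PMN-MDSC at each age; comparisons of 1 group share its libraries. For 4 of them the fit was repeated with the summed counts of Cd79a, Cd79b and Ms4a1 as library size. SE is the log2 change over the square root of F. Correlations used log2(CPM + 0.5).

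Every listed gene is accounted for, by name or within a count. Full statistics are given for the 3 reference genes between ages. Of the genes called against them, some have values and others are only named. For other lists, values are given for up to 2 genes that had the smallest adjusted p between ages in either cell type. Such a gene may be read in both cell types. Igll1 and Vpreb1 were chosen outside this rule. The genes and lists were chosen with earlier results of these data known. Simulated log2 changes of 2 and 1 between newborn and adult PMN-MDSC were recovered for 100% and 51% of genes over 12943 genes. Changes were planted only in genes above a set level, with the simplifications given above. Alternatives covered scaling, filters, DESeq2 1.42.0, voom (limma 3.58.1), batches, reference genes, a replicate block and leaving out each library. Gene coordinates are from GENCODE (GRCm38), promoters from RefSeq (GRCm38.p6).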

Additional observations from a re-analysis of the deposited data

Results flagged for a closer look

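In 6 of 87 groups of 4 or more libraries, 1 library lay far from the rest of its group by Dixon's test, where chance flags about 1 in 20. Newborn PMN-MDSC replicate 39 was the highest of its group for Cd79b (118 CPM), Cd22 (61.9 CPM) and Ralgps2 (43.3 CPM), and it also had the highest summed level of the 29 genes in that group, 956 CPM. Newborn PMN-MDSC replicate 2 was the lowest for Fcrl1 (9.30 CPM). Newborn M-MDSC replicate 1 was the highest for Ly6d (11.6 CPM) and was the 1 newborn M-MDSC library with counts of Fcrl5 (1.39 CPM).

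For 6 of the 29 genes the age difference was called different between the cell types, by the interaction term of edgeR's quasi-likelihood test. Of all genes tested 18.1% were called either way, a share close to that of the 29. In M-MDSC minus PMN-MDSC on the log2 scale the difference was 2.90 for Btla, 2.87 for Tnfrsf13b, 2.33 for Cd180, 1.40 for Ralgps2, 1.36 for Siglecg and -3.80 for Cd72. Only the calls of Tnfrsf13b and Cd180 held in all 32 alternatives. Those of Btla, Ralgps2, Siglecg and Cd72 were lost without the batch 1 partners. All 5 newborn M-MDSC libraries exceeded all 3 adult ones for Tnfrsf13b, while all 5 newborn PMN-MDSC libraries lay below all 6 adult ones.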

How the results depend on the processing

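Of the alternative values for the counts and summed levels, 247 stayed within 1.5 times the main value or 1 SD, and 41 did not. Newborn against adult, the count of called genes was 27 to 29 in PMN-MDSC and 24 to 27 in M-MDSC with any 1 library left out. On the same terms it was 4 to 9 for the difference of the age effects, 17 to 24 between cell types in adults and 21 to 26 in newborns. Relative to the reference genes the ranges were 3 to 7 and 12 to 17 for age in PMN-MDSC and M-MDSC, and 2 to 5 and 9 to 12 between cell types in adults and newborns. The lowest count of the age difference in PMN-MDSC, 27, came without newborn replicate 2 or 3. With CPM on the total count, the mean summed level of newborn PMN-MDSC was 574 CPM, in place of 731.

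The count for the difference of the age effects (6) was 2 in batch 1 alone, 11 in batch 2 alone, 3 by voom and 2 without the batch 1 partners. Between cell types in adults (22) it was 14 in batch 1 alone and 14 without the partners, and in newborns (24) 13 in batch 1 alone. Relative to the reference genes, the 5 called for age in PMN-MDSC became 12 with only the groups compared, 1 in batch 1 alone, 2 without the partners, 1 with Cd79a, 11 with Cd79b, 0 with Ms4a1 and 1 with Cd79a and Ms4a1 as reference. The 13 for age in M-MDSC became 3 with only the groups compared and 7 in batch 1 alone. The 4 between cell types in adults became 2 in batch 1 alone, 0 with Cd79a, 1 with Cd79b, 1 with Ms4a1, 1 with Cd79a and Ms4a1, and 10 with those 2 and newborn M-MDSC replicate 77 left out. The 10 in newborns became 4 in batch 1 alone, 19 with Cd79a, 20 with Ms4a1 and 19 with both. The cause of these shifts was not tested, beyond the fewer libraries in a batch.

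Values that turned direction were almost all relative to the reference genes in newborn M-MDSC. With Cd79a, Ms4a1 or both as reference, age in M-MDSC gave 2.01, 1.97 and 1.98 for Bach2, 2.58, 2.62 and 2.58 for Blk, 1.71, 1.73 and 1.70 for Cd22, 0.31, 0.084 and 0.18 for Cr2, 3.07, 3.12 and 3.09 for Dtx1 and 2.45, 2.50 and 2.46 for Pax5. Between cell types in newborns they gave 2.54, 3.12 and 2.77 for Cd22, 1.02, 1.51 and 1.202 for Ly6d and 2.86, 3.48 and 3.12 for Pax5. With both as reference and replicate 77 left out, an alternative chosen after seeing the data, Cd22 was at 0.40 and Ly6d at 0.019 between cell types in newborns, while Pax5 there (-0.09) and the 6 age values in M-MDSC (-1.28 to -0.18) were below 0 again. Fcrl5 for age in M-MDSC was 0 in batch 2 alone, and ran from -8.41 (without newborn replicate 1) to 3.37 (without adult replicate 3) with 1 library left out.

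Replicate numbers of batch 1 recur across groups, and the deviations of same-numbered libraries correlated at -0.0697 to 0.230, highest for adult PMN-MDSC with adult M-MDSC (0.229 and 0.230); not every pair was over 0.1, so the numbers were not taken to pair the libraries. With a replicate block in batch 1, the count was 28 and 24 for age in PMN-MDSC and M-MDSC, 3 for the difference, 21 between cell types in adults and 15 in newborns. In the same paired fit relative to the reference genes it was 1, 6, 1 and 2 for age in PMN-MDSC, age in M-MDSC, adults and newborns.

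Depth limits the batch 1 libraries most, where a count of 0 allows up to 3.29 CPM. The all-gene median of the age difference in PMN-MDSC went from -0.05 to -0.29 under upper-quartile scaling and -0.22 under size factors from DESeq2, and all 29 genes stayed below 0 under both.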

Other observations

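The symbol Faim3, absent from the table, is listed by RefSeq as a synonym of Fcmr, the receptor for immunoglobulin M that B cells carry. Fcmr was 160 to 270 CPM in adult PMN-MDSC (median 190.6) and 13.1 to 24.0 CPM in the newborn ones (median 15.6). It was 38.4 to 126 CPM in adult M-MDSC (median 107) and 0.0469 to 9.62 CPM in the newborn ones (median 5.11). The ages did not overlap in either cell type, as for most of the 29 genes, and Fcmr entered no count of them.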
